A study of Homo sapiens with 8 samples.

Results

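The genes described here encode the nucleosome remodeling and deacetylase complex, NuRD, built around the methyl-CpG-binding-domain proteins MBD3 and MBD2. The 10 member genes were MBD3, MBD2, CHD3, CHD4, HDAC1, HDAC2, MTA1, MTA2, GATAD2A and RBBP7, and every probe that the series' probe table assigned to one of these symbols was taken, which gave 18 of the 24460 probes on the array. Of these, 16 probes for 9 genes passed the filter on dim spots and were tested, among 12904 tested probes in all. Each probe is reported by itself, since the 3 MBD3 probes did not give the same result.

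mRNA was measured in HCT116, an established human colorectal carcinoma cell line, on 8 single-dye oligonucleotide arrays. Cells of the negative control group (3 arrays) were transfected with a synthetic RNA of unrelated sequence, cells of the miR-8073 group (3 arrays) with a synthetic mimic of the microRNA miR-8073, and the mock group (2 arrays) was treated with a blank. All 3 groups are cultures of the same line with no other agent or genetic change in the labels, which do not say whether the blank contained the transfection reagent. The labels do not say that the arrays of a group came from separate cultures, so the p-values rest on a spread between arrays that may be technical. The study's own text gives different times for the RNA extraction, and none is stated here.

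NuRD couples an ATP-driven chromatin remodeller to histone deacetylases and is known mostly as a repressor and fine-tuner of transcription. CHD3 and CHD4 are alternative remodelling ATPases, HDAC1 and HDAC2 are the deacetylases, and the MTA proteins are the scaffold that holds and activates them. MBD2 and MBD3 occupy the complex in turn: MBD2 brings it to methylated CpG sites, whereas mammalian MBD3 has largely lost that selectivity. GATAD2A bridges the MBD protein and the remodeller, and RBBP7 is a histone-binding WD-repeat protein that it shares with several other chromatin complexes.

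A microRNA finds its targets mainly through its seed, bases 2 to 8 of the mature strand, which pairs with the 3′ untranslated region of an mRNA. MBD3 is one of the mRNAs that the study named as a target of miR-8073, so the mature strand is shown with its seed in capitals. The sequence is that of RefSeq, on the plus strand of GRCh38.p14 at chr13:110340968-110340989, 5′ to 3′:
hsa-miR-8073: aCCUGGCAgcagggagcgucgu
A perfect seed match in an mRNA would read UGCCAGG. The seed is not particular to miR-8073, since miR-221-5p is known to carry the same bases. The arrays carried no measurement of miR-8073 itself, so uptake of the mimic is not shown by these data.

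The arrays resembled each other closely. Between 11559 and 12786 probes were above background on an array (47.3% to 52.3%), where background is the 95th percentile of the 2680 blank spots of that array. Correlations over the tested probes were 0.993 to 0.996 within a group and 0.983 to 0.993 between groups. No 2 arrays held identical values. The epithelial markers EPCAM, KRT18, KRT19 and CDH1 were above background on all 8 arrays, whereas PTPRC, CD3E, VWF, COL1A1, COL1A2, COL3A1 and ALB, which mark leukocytes, endothelium, fibroblasts and hepatocytes, were above background on 0 arrays.

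Values are signals in scanner units after background correction and quantile normalization. Log2 changes were computed on the signal plus 50, which makes the change of a dim probe look smaller than the ratio of its signals, so both are given. Levels of different probes are not comparable, because probes bind their targets with different strength. RNA came from whole cultures, so fewer cells carrying an mRNA and less of it per cell cannot be told apart.

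Of the MBD3 probes, H200008337 was lower after transfection of the mimic. Its signal was 43.6, 40.4 and 38.1 on negative control arrays 1 to 3, then 14.5, 20.7 and 20.7 on mimic arrays 1 to 3, and 50.1 and 52.5 on mock arrays 1 and 2. Each of the 3 mimic arrays was below all 5 control arrays, an arrangement that 8.48% of the tested probes showed in that direction, and among the 16 tested NuRD probes H200008337 was the 1 that showed it. The mean signal was 18.7 ± 3.59 (SD, n = 3) with the mimic, 40.7 ± 2.72 (n = 3) with the negative control and 51.3 ± 1.73 (n = 2) in mock cells.

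Against the negative control, H200008337 fell by 0.40 on the log2 scale (SE 0.05, limma adjusted p = 0.00266), a ratio of mean signals of 2.18. Against mock cells it fell by 0.56 (SE 0.05, limma adjusted p = 0.00375), a ratio of 2.75. The methods' t-test on the same values did not call it there (adjusted p = 0.172), where that test called 2 of the 12904 tested probes. Negative control and mock cells themselves differed by -0.16 (SE 0.05, limma adjusted p = 0.149), which did not pass the threshold of 0.05, although the arrays of these 2 groups did not overlap. Both comparisons use the same mimic arrays, and 260 of the 12904 tested probes (2.01%) were called lower against both controls. The study chose MBD3 partly on these same arrays, so its decrease here is not independent evidence of a target.

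In the log2 values that the authors deposited, H200008337 read 5.31, 5.22 and 5.36 on the negative control arrays. It read 4.09, 4.49 and 4.15 on the mimic arrays, and 5.80 and 5.70 on the mock arrays. No constant of 50 compresses these values, and on this scale the change was -1.05 against the negative control and -1.51 against mock cells.

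The other MBD3 probes were not called. DHsGV10003361 gave 86.3, 91.6 and 94.3 on the negative control arrays, 58.7, 77.2 and 81.6 on the mimic arrays, and 80.3 and 99.6 on the mock arrays. The mimic arrays were below the negative control arrays but overlapped the mock arrays, with a log2 change of -0.20 against the negative control (SE 0.08, limma adjusted p = 0.141) and -0.19 against mock (SE 0.09, limma adjusted p = 0.330).

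DHsGV10001502 gave 22.9, 22.3 and 20.8 on the negative control arrays, 16.1, 21.6 and 24.3 on the mimic arrays, and 18.3 and 22.2 on the mock arrays. The groups overlapped, and its log2 change of -0.03 against the negative control had a 95% confidence interval of -0.15 to 0.09. This interval does not reach the change measured by H200008337, although the added constant compresses the change of DHsGV10001502 more. In the authors' log2 values DHsGV10001502 read 4.36, 4.33 and 4.52 on the negative control arrays. It read 4.23, 4.55 and 4.38 on the mimic arrays and 4.40 and 4.45 on the mock arrays, so the groups overlapped there too. On mimic array 1, each of the 3 MBD3 probes had its lowest signal of the mimic group.

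**Figure D1:**
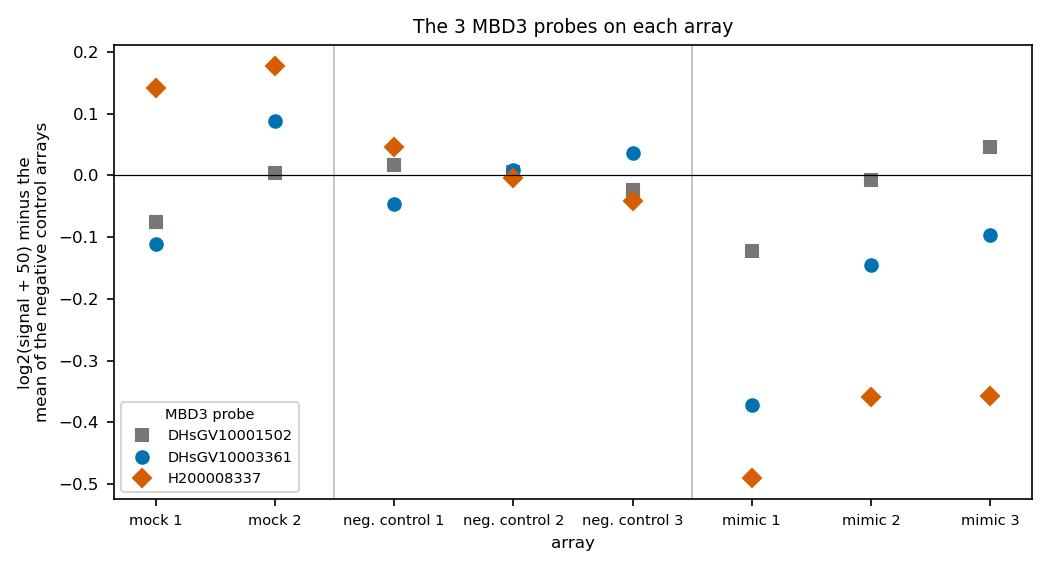
The 3 MBD3 probes on each of the 8 arrays. The vertical axis is log2(signal + 50) minus that probe's mean over the negative control arrays, and the horizontal axis lists the arrays by group; H200008337 (diamonds) lies below all control arrays on every mimic array, DHsGV10003361 (circles) overlaps the mock arrays, and DHsGV10001502 (squares) lies on both sides of 0.

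Whether the log2 changes of the MBD3 probes differed was tested as the log2 difference between probes of the same gene. The limma fit covered the 1099 probe pairs of all 1055 genes with more than 1 tested probe. The constant added to the signal compresses the change of a dim probe more than that of a brighter probe. Against mock, DHsGV10001502 (mean signal 20.2 in mock cells) could therefore not show a fall as large as that of H200008337. The test against mock cannot decide whether this pair disagrees, and part of the pair's difference against the negative control can come from the constant. DHsGV10001502 and H200008337 differed in their change against the negative control by 0.37 (SE 0.05, limma adjusted p = 0.0114), where 44 of the 1099 pairs (4.0%) were called. They differed in their change against mock by 0.57 (SE 0.06, limma adjusted p = 0.0108), where 2 of the 1099 pairs (0.182%) were called. The first of these calls was lost without negative control 1 or mimic 3, and the second without negative control 3, mimic 2 or mimic 3, with adjusted p values up to 0.0674 and 0.0858 over the arrays left out in turn.

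DHsGV10003361 stood between these probes, and no pair with it passed in this fit. Its change against the negative control differed from that of H200008337 by 0.20 (95% confidence interval 0.03 to 0.37, limma adjusted p = 0.158) and from that of DHsGV10001502 by 0.18 (0.02 to 0.33, limma adjusted p = 0.153). Against mock it differed from H200008337 by 0.37 (0.18 to 0.56, limma adjusted p = 0.193). The authors' log2 values called its difference from H200008337 against the negative control (0.78, limma adjusted p = 0.0391) and against mock (1.16, limma adjusted p = 0.0278). Of all 15 alternatives for this pair, 1 called it against the negative control and 2 against mock. Which transcripts each probe detects was not analysed here, since probe sequences were not used.

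MBD2, the methylated-DNA-binding alternative to MBD3, was represented by the probe CHsGV10001327. It gave 330.1, 284 and 335 on the negative control arrays, 369, 301 and 358 on the mimic arrays, and 308 and 265 on the mock arrays. Mimic and control arrays overlapped, and the log2 change was 0.10 against the negative control (95% confidence interval -0.11 to 0.31, limma adjusted p = 0.512) and 0.22 against mock (-0.02 to 0.46, limma adjusted p = 0.310).

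The remodeller CHD3 was not above background on any array. Spot intensities before correction were 56.8 to 62.1 for AHsV10001278 and 59.0 to 61.7 for opHsV0400005151, against mean blank intensities of 59.8 to 64.3, so neither probe was tested.

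CHD4, the other remodeller, was measured by both of its probes. H300018849 gave 180.4, 164 and 177 on the negative control arrays, 218, 185 and 209.5 on the mimic arrays, and 202 and 226 on the mock arrays. The negative control arrays were the lowest, below both other groups without overlap. Its log2 change was 0.18 for mimic against negative control (SE 0.06, limma adjusted p = 0.0906), -0.06 for mimic against mock (SE 0.07, limma adjusted p = 0.752) and -0.24 for negative control against mock (SE 0.07, limma adjusted p = 0.108), none of which was called.

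The second CHD4 probe, AHsV10003581, varied more between arrays of a group. It gave 119, 92.8 and 146 with the negative control, 113, 114 and 93.0 with the mimic, and 79.3 and 136 in mock cells. All groups overlapped, and the log2 change against the negative control was -0.10 with a 95% confidence interval of -0.47 to 0.27.

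The catalytic subunit HDAC1 was not called by either probe. AHsV10000721 gave 600.1, 953 and 867 on the negative control arrays, 1005, 1018 and 1074 on the mimic arrays, and 1069 and 749 on the mock arrays. The mimic arrays lay above the negative control arrays but not above both mock arrays, and the log2 change of 0.36 against the negative control had the widest interval among the tested NuRD probes, -0.06 to 0.78 (limma adjusted p = 0.217).

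H200010284, the second HDAC1 probe, stayed between 475 and 584 on all 8 arrays, with overlapping groups and a log2 change of 0.06 against the negative control (95% confidence interval -0.13 to 0.25). The paralogue HDAC2 gave 170.3, 215 and 178 on the negative control arrays, 255, 209 and 206 on the mimic arrays, and 191 and 160.4 on the mock arrays. The mimic arrays of HDAC2 exceeded both mock arrays, by a log2 change of 0.28 (SE 0.11, limma adjusted p = 0.242), and overlapped the negative control arrays, with a change of 0.20 (SE 0.10, limma adjusted p = 0.219).

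The scaffold gene MTA2 was lower with the mimic than with the negative control. H300004711, its probe, gave 115, 122 and 123 on the negative control arrays, 58.7, 69.8 and 77.3 on the mimic arrays, and 74.1 and 105 on the mock arrays. The mimic arrays lay below all negative control arrays, while mock array 1 fell within the range of the mimic arrays. The means were 119.9 ± 4.42 (SD, n = 3) with the negative control, 68.6 ± 9.34 (n = 3) with the mimic and 89.4 ± 21.6 (n = 2) in mock cells.

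Against the negative control, MTA2 fell by 0.52 on the log2 scale (SE 0.09, limma adjusted p = 0.00995), a ratio of mean signals of 1.75. Its change against mock was -0.23 (95% confidence interval -0.46 to 0.01, limma adjusted p = 0.288). Negative control and mock differed by 0.29 (0.06 to 0.53, limma adjusted p = 0.155), so in the order mimic, mock, negative control only the outer groups were told apart. The call was lost when each array was centred on its median in place of quantile normalization, with a log2 change of -0.44 and limma adjusted p = 0.115.

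MTA1, a paralogous scaffold, was not called. opHsV0400002183 gave 89.6, 85.1 and 82.8 on the negative control arrays, 84.0, 53.6 and 69.9 on the mimic arrays, and 64.9 and 67.8 on the mock arrays. The mimic arrays overlapped both control groups, with a log2 change of -0.20 against the negative control (SE 0.09, limma adjusted p = 0.169), which was called without mimic array 1 (limma adjusted p = 0.0474). The other probe, AHsV10003269, lay between 3.76 and 7.65 and was above background on 5 of the 8 arrays, 3 of them negative controls, with a log2 change from the negative control of -0.05 (limma adjusted p = 0.314).

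GATAD2A, the bridging subunit, differed most between the control groups themselves. AHsV10003152 gave 7.69, 6.95 and 7.76 on the negative control arrays, 19.7, 13.2 and 14.7 on the mimic arrays, and 25.02 and 26.2 on the mock arrays, all above background. The 3 groups did not overlap: mock was highest, the mimic intermediate and the negative control lowest. The means were 7.47 ± 0.452 (SD, n = 3), 15.9 ± 3.41 (n = 3) and 25.6 ± 0.816 (n = 2) for negative control, mimic and mock.

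The probe was called lower in negative control than in mock cells (log2 change -0.40, SE 0.05, limma adjusted p = 0.0116), a ratio of mean signals of 3.43. It was called higher with the mimic than with the negative control (log2 change 0.20, SE 0.04, limma adjusted p = 0.0238), a ratio of 2.13, and its change against mock was -0.20 (SE 0.05, limma adjusted p = 0.0704). These comparisons share arrays, and 213 of the 12904 tested probes (1.65%) had the same 2 calls, higher with the mimic than the negative control and lower in the negative control than in mock. Both ratios rest on negative control signals near background. Before correction these spots read 66.2, 66.0 and 69.1, against background thresholds of 64.6, 64.9 and 65.0 on the same arrays. The call against the negative control was lost without any 1 of the negative control arrays or without mimic 3 (limma adjusted p 0.0503 to 0.0704), and the call between the control groups without mock 1 (limma adjusted p = 0.0685). The methods' t-test called neither (adjusted p 0.0842 and 0.0754). Over the whole array it called 818 of 12904 probes against the negative control and 6 of 12903 between the control groups.

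The second GATAD2A probe, H300009165, was above background on 2 of the 8 arrays and lay between 2.80 and 5.84, with log2 changes of -0.02 against the negative control and -0.04 against mock. With the constant added to the signal, a probe this dim could not show a log2 fall as large as that of AHsV10003152. The test of the difference between both probes therefore cannot decide whether they disagree. Their difference in the change from mock to negative control was -0.37 (SE 0.07, limma adjusted p = 0.0369), where 1.82% of probe pairs were called. This call was kept in 1 of the 8 fits that left out 1 array.

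The histone-binding subunit RBBP7 was not called by either probe. AHsV10003346 gave 432, 477 and 406 on the negative control arrays, 588, 405 and 502 on the mimic arrays, and 477 and 380 on the mock arrays, and H200004079 lay between 432 and 656 on all arrays. Groups overlapped in every comparison, and the log2 changes against the negative control were 0.16 (95% confidence interval -0.15 to 0.47) and 0.12 (-0.23 to 0.47).

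**Figure D2:**
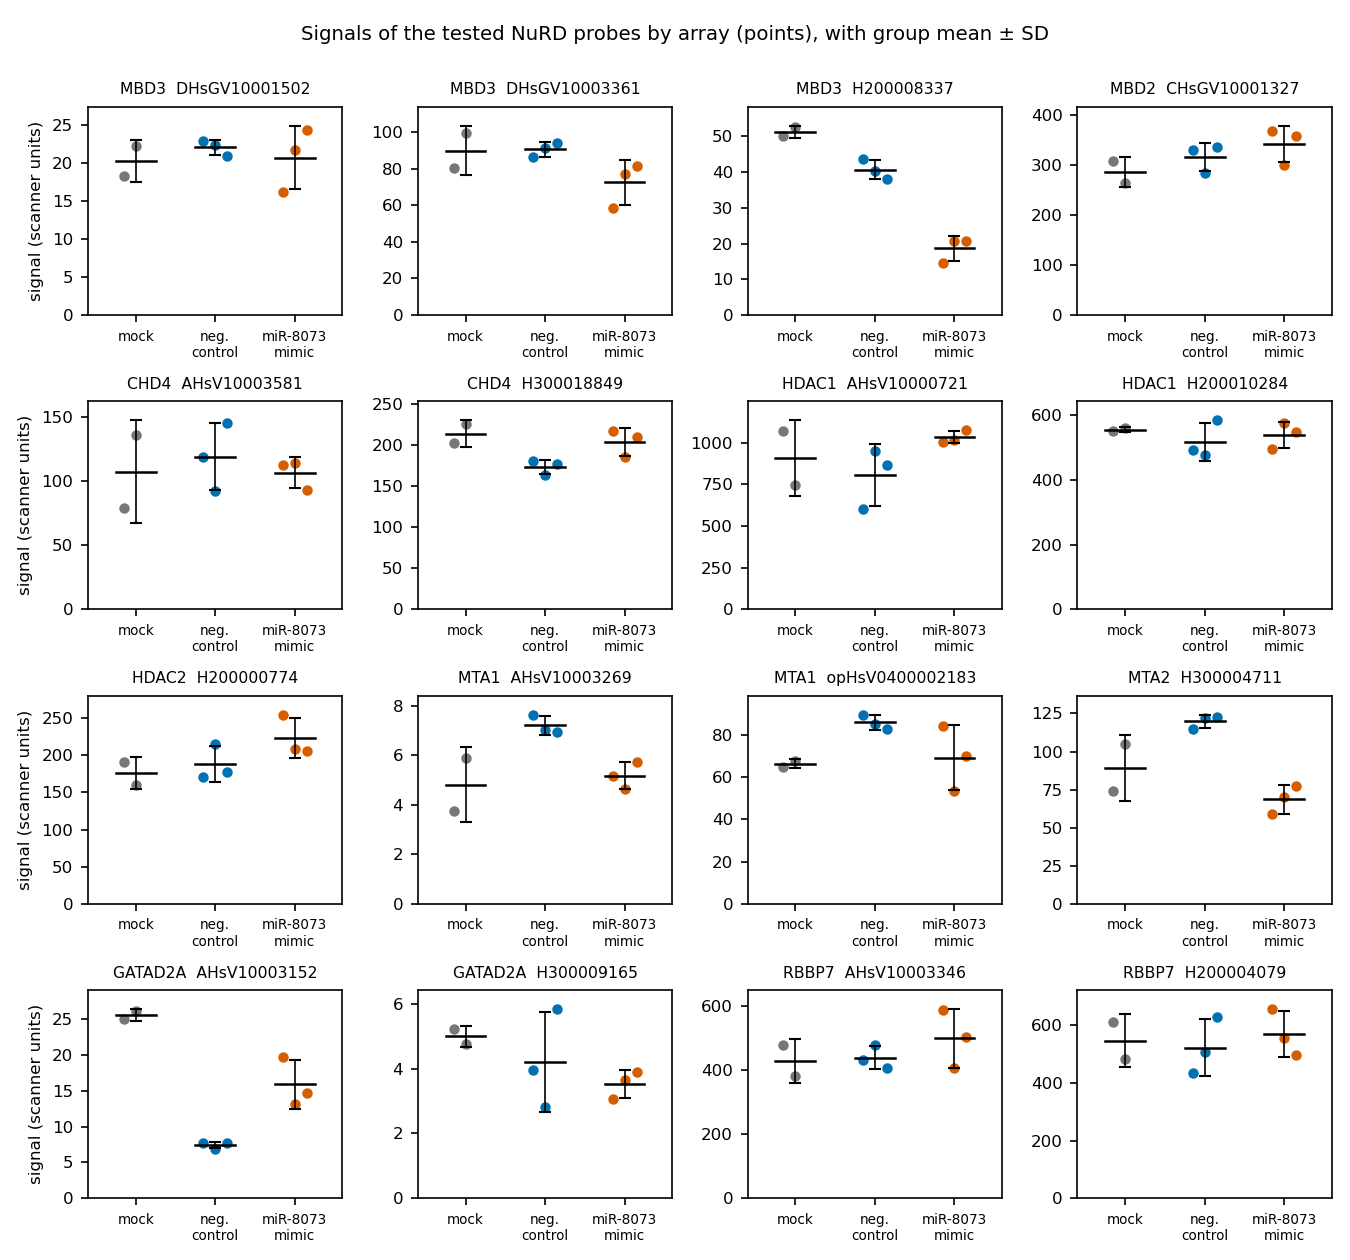
Signal of each of the 16 tested NuRD probes on every array, in scanner units on linear axes from 0. Points are arrays, horizontal lines are group means and bars are ± SD (mock n = 2, negative control and mimic n = 3); MBD3 H200008337 and MTA2 are low with the mimic, and GATAD2A AHsV10003152 is lowest with the negative control.

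In all, 3 of the 16 tested NuRD probes (18.75%) were called for mimic against negative control, beside 15.6% of all tested probes. The 2 lower ones were MBD3 H200008337 and MTA2, where 7.82% of all probes were called lower, and the 1 higher was GATAD2A AHsV10003152, where 7.81% were called higher, so the share of NuRD probes called was near that of the whole array. The 13 uncalled probes had log2 changes of -0.20 to 0.36 with limma adjusted p of 0.0906 to 0.775, and their 95% confidence intervals together spanned -0.47 to 0.78. Over the NuRD probes the median log2 change was 0.02, beside 0.004 over all tested probes, with 8 probes on either side of 0.

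Against mock, 1 NuRD probe (6.25%) was called, MBD3 H200008337, beside 3.78% of all tested probes in either direction and 2.56% in that direction. The 15 uncalled probes ranged from -0.23 to 0.28. Between negative control and mock, 1 probe (6.25%) was called, GATAD2A AHsV10003152, beside 3.60% in either direction and 2.23% in that direction, and the uncalled probes ranged from -0.24 to 0.29. Signals of the groups did not overlap for 7, 4 and 6 NuRD probes in these 3 comparisons, beside 37.9%, 33.8% and 39.3% of all tested probes. With the ring of pixels around each spot taken as background in place of the blank spots, limma called 0 of the 12904 probes in each comparison, at unadjusted p under 0.05 for 367, 266 and 421 probes overall and for 0 NuRD probes.

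**Figure D3:**
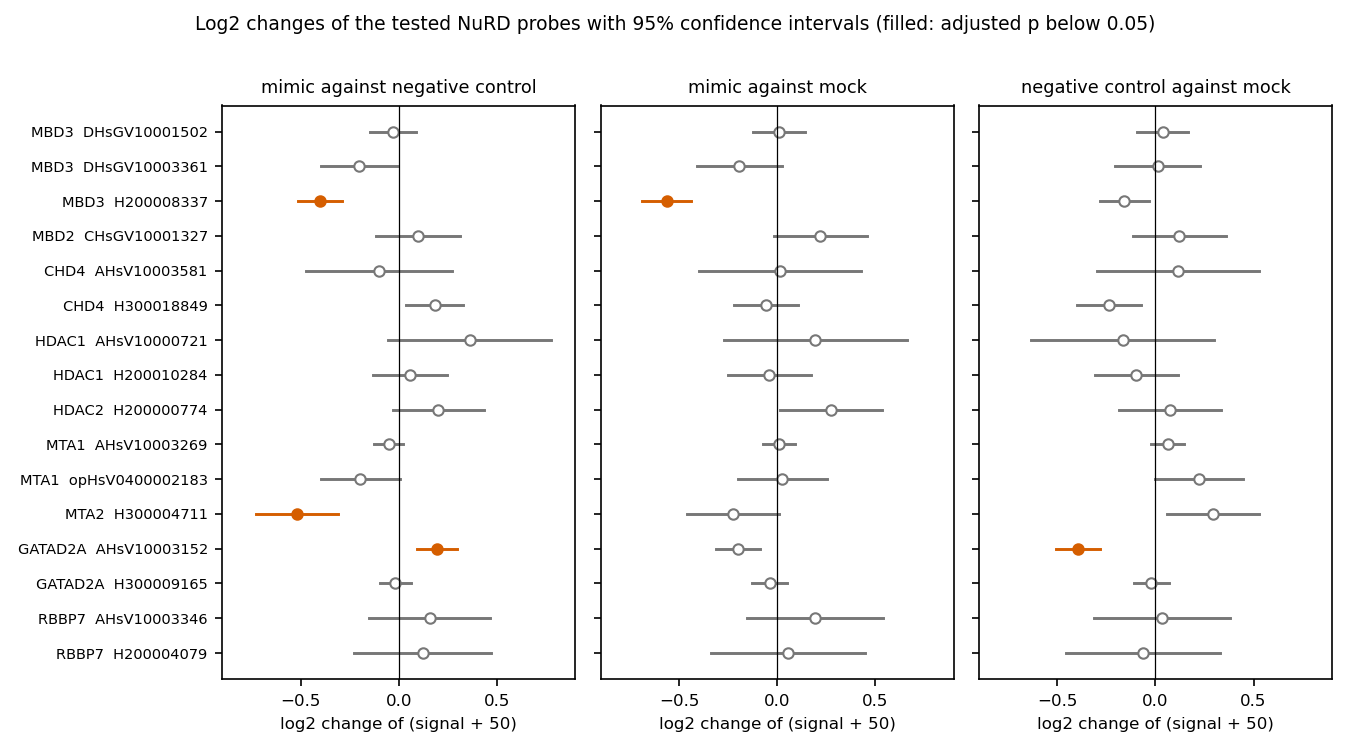
Log2 change of signal + 50 for each tested NuRD probe in the 3 comparisons, with 95% confidence intervals as bars. Filled points passed the limma adjusted p threshold of 0.05: MBD3 H200008337, MTA2 and GATAD2A AHsV10003152 against the negative control, MBD3 H200008337 against mock, and GATAD2A AHsV10003152 between the control groups.

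NuRD shares subunits and chemistry with other chromatin complexes, and 7 further lists with 90 genes were counted, each gene by its brightest tested probe. Of these, 67 genes had a tested probe. Against the negative control, 5 were lower and 3 higher (11.9%), beside 16.8% of the 10260 genes tested on the array, 8.67% lower and 8.13% higher. Against mock, 3 were lower and 1 higher (5.97%, beside 4.22%, of which 2.88% lower and 1.35% higher), and between negative control and mock 1 was higher (1.49%, beside 3.89%, with 1.61% higher).

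Among the 18 other NuRD subunits and partners, 13 had a tested probe, and 1 rose against the negative control while 0 fell. That gene was RBBP4, the close paralogue of RBBP7. Its signals were 231, 185 and 216 on the negative control arrays, 322, 294 and 281 on the mimic arrays, and 294 and 274 on the mock arrays. The negative control arrays were low and the mimic and mock arrays overlapped, with log2 changes of 0.42 against the negative control (SE 0.07, limma adjusted p = 0.0109), 0.06 against mock (limma adjusted p = 0.776) and -0.36 between negative control and mock (limma adjusted p = 0.0648). The RBBP4 call was kept in 15 of all 18 alternatives, among them all 8 fits without 1 array. It was lost with the ring background, the authors' log2 values (limma adjusted p = 0.0936) and the methods' t-test (adjusted p = 0.0797). For mimic against negative control the median over the 13 genes was -0.004 on the log2 scale, beside 0.004 over all genes.

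In the SIN3 complex, a separate assembly around the same deacetylases and histone-binding proteins, 1 of 12 tested genes fell and 0 rose against either control. SINHCAF, a subunit of that complex, had signals of 193, 182 and 172 with the negative control, 81.4, 96.0 and 79.9 with the mimic, and 216 and 240.2 in mock cells. All mimic arrays were below all control arrays, with log2 changes of -0.78 against the negative control (SE 0.06, limma adjusted p = 0.000613) and -1.04 against mock (SE 0.07, limma adjusted p = 0.0011). Over the 12 genes the median log2 change from the negative control was 0.06.

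Of the 9 tested genes of the CoREST and MiDAC deacetylase complexes, 1 rose against the negative control, GSE1, a protein found with CoREST. Its mean signal was 43.7 ± 5.44 (SD, n = 3) with the mimic and 28.1 ± 3.30 (n = 3) with the negative control, a log2 change of 0.26 (SE 0.06, limma adjusted p = 0.0254), and its change against mock was 0.09 (limma adjusted p = 0.562). The GSE1 call was kept in 10 of all 18 alternatives and in 4 of 8 fits without 1 array, being lost without negative control 1 or 2 or mimic 2 or 3 (limma adjusted p up to 0.0738). None of the 8 tested genes among the other class I and II deacetylases and the NCoR complex, and none of the 6 tested other CHD remodellers, was called by limma in any of the 3 comparisons. At an unadjusted p under 0.05 there were 0, 2 and 3 of these deacetylase genes and 1, 2 and 1 of these remodellers in the comparisons of mimic with negative control, mimic with mock and negative control with mock. Over all 12904 tested probes there were 4054, 2388 and 2744 in the same comparisons. The median log2 changes of these deacetylase genes and remodellers against the negative control were 0.04 and -0.05.

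Among the other methyl-CpG-binding proteins, 1 of 6 tested genes rose against both controls. SETDB1, a histone methyltransferase that carries a methyl-CpG-binding domain, had signals of 80.1, 79.6 and 79.5 with the negative control, 113, 99.4 and 109.5 with the mimic, and 64.2 and 84.0 in mock cells. The mimic arrays were above all control arrays, with log2 changes of 0.28 against the negative control (SE 0.06, limma adjusted p = 0.0272) and 0.35 against mock (SE 0.07, limma adjusted p = 0.0452). Leaving out 1 array at a time kept these calls in 3 and 1 of 8 fits.

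RBBP4 and RBBP7 also serve in the histone chaperone of DNA replication and in Polycomb repressive complex 2. Of the 14 genes listed for these and other partners, all tested, 4 fell and 0 rose against the negative control, and 2 fell against mock. CHAF1A and CHAF1B are the large subunits of the replication chaperone. CHAF1A had signals of 313, 274 and 285 with the negative control, 186, 174 and 162 with the mimic, and 235 and 221 in mock cells.

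The mimic arrays of CHAF1A were below all control arrays. Its log2 changes were -0.61 against the negative control (SE 0.06, limma adjusted p = 0.00121) and -0.31 against mock (SE 0.06, limma adjusted p = 0.0469). CHAF1B gave means of 86.4 ± 11.5 (SD, n = 3) with the mimic, 168 ± 16.2 (n = 3) with the negative control and 165 ± 34.2 (n = 2) in mock cells. Its log2 changes were -0.67 against the negative control (SE 0.10, limma adjusted p = 0.00619) and -0.65 against mock (SE 0.11, limma adjusted p = 0.0272). The calls against mock were kept in 1 of 8 fits without 1 array for CHAF1A and in 4 of 8 for CHAF1B, while those against the negative control were kept in all 8 for both genes.

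The Polycomb subunits SUZ12 and EED were the other genes of this list called lower against the negative control. SUZ12 gave means of 318 ± 41.6 (SD, n = 3) with the negative control, 176 ± 15.3 (n = 3) with the mimic and 165 ± 59.0 (n = 2) in mock cells. The negative control arrays were high, with log2 changes of -0.70 for mimic against negative control (SE 0.15, limma adjusted p = 0.0204), 0.09 for mimic against mock (limma adjusted p = 0.841) and 0.80 for negative control against mock (SE 0.17, limma adjusted p = 0.049). SUZ12 has a near-identical pseudogene copy, which its probe could also detect. Its call against the negative control was kept in 11 of all 18 alternatives and in 4 of 8 fits without 1 array, being lost without negative control 1 or 2 or mimic 1 or 2 (limma adjusted p up to 0.0732). The call between negative control and mock was kept in 4 of 18 alternatives, and of the 8 fits without 1 array in that without mock 2 (limma adjusted p up to 0.162 in the others). EED changed by -0.17 against the negative control (SE 0.05, limma adjusted p = 0.0477) and -0.12 against mock (limma adjusted p = 0.309), and its call was kept in 1 of 8 fits without 1 array.

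**Figure D4:**
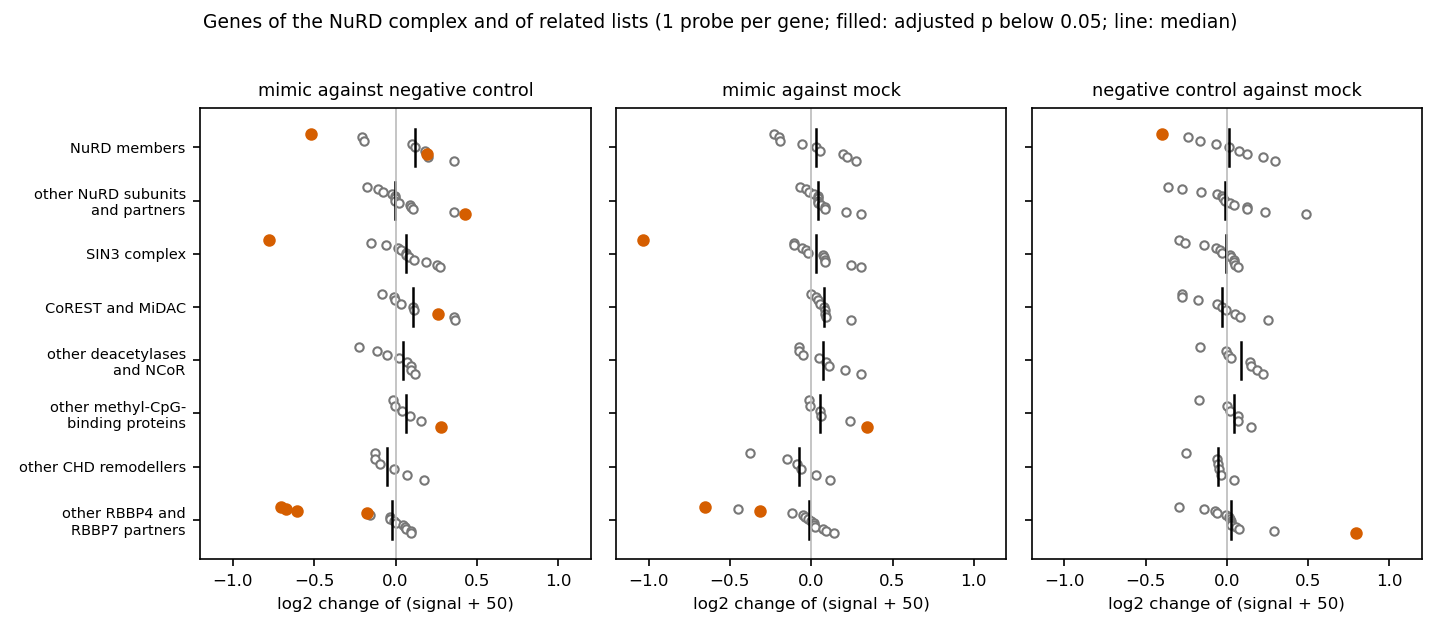
Log2 change of signal + 50 for the NuRD genes and the 7 related lists in the 3 comparisons, with 1 point per gene (its brightest tested probe, which for MBD3 is DHsGV10003361) and a vertical line at each list's median. Filled points passed the limma adjusted p threshold of 0.05; against the negative control they are 5 lower and 3 higher genes outside the NuRD members, and the list medians lie between -0.05 and 0.12.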

How the data were processed

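Total RNA of HCT116 cells was amplified, coupled to the dye Cy5 and hybridised to a 25K human oligonucleotide chip read at 635 nm. The deposited array files give the median intensity of each spot and of the ring around it, per the file headers, and the authors also deposited quantile-normalized log2 values, whose lowest value is 2.07 on every array. The background that the authors subtracted before taking log2 was not stated in the sources used here.

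Spot intensities were corrected in limma (version 3.58.1, R version 4.3.3) by normexp with the blank spots as background and an offset of 50, quantile-normalized and taken to log2. Signal is the normalized value minus 50. Probes above the 95th percentile of blank spots on at least 2 arrays were tested, and 13 faulty probe spots, none of a NuRD member, were left out. Tests were 2-sided, from limma's lmFit and eBayes with 3 group means over all 8 arrays (5 residual degrees of freedom), adjusted by the Benjamini-Hochberg method over all tested probes, with a threshold of 0.05. The probe-pair fit was adjusted over all pairs. The scripts were tested on simulated data. The number of arrays limits the precision.

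All NuRD probes are reported. Of other lists, up to 4 called genes with the smallest adjusted p against the negative control are named. Symbols come from the series' probe table, with old ones updated, and 4224 probes had none. The members and lists were chosen with earlier results of these data known. Same-numbered arrays correlated in their deviations from group means by -0.106 to 0.345. The highest were mimic 1 with mock 1 (0.345) and mimic 2 with mock 2 (0.268). With 2 mock arrays the deviations of the mock arrays mirror each other, so these values cannot settle whether same-numbered arrays shared an effect. The numbers were not taken as pairs in the main fit. The alternatives were another background (the ring, or the blank mean subtracted), an offset of 16, median centring, the authors' log2 values, no filter, an intensity trend, a fit of 2 groups alone, a replicate block, the methods' t-test and each array left out.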

Additional observations from a re-analysis of the deposited data

How the results depend on the processing

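With the ring around each spot as background, 0 NuRD probes and 0 NuRD probe pairs were called by limma in any comparison, as were 0 of all 12904 probes (266 to 421 at an unadjusted p under 0.05). The ring intensity correlated with the spot intensity by 0.919 to 0.986 across probes of an array. Under this setting MBD3 H200008337 differed by -0.05 from the negative control and by -0.09 from mock, MTA2 by -0.17 against the negative control, and GATAD2A AHsV10003152 by 0.04 between mimic and negative control and by -0.08 between negative control and mock. Genes that reversed there were SINHCAF (0.0703), GSE1 (-0.0300), CHAF1A (0.15), SUZ12 (0.42) and EED (0.57) against the negative control, SETDB1 (-0.0704) against mock and SUZ12 (-0.63) between negative control and mock. The cause was not tested.

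MBD3 H200008337 was called against the negative control under 17 of 18 alternatives and against mock under 16, the second exception being the methods' t-test (adjusted p = 0.172). MTA2 against the negative control was called under 16 and GATAD2A AHsV10003152 under 12. The methods' t-test called 0 NuRD probes against mock (3 at an unadjusted p under 0.05) and 0 between negative control and mock (4). Over the whole array it called 2 of 12904 probes against mock, with 1724 at an unadjusted p under 0.05. Between negative control and mock it called 6 of 12903, with 1951 at an unadjusted p under 0.05. An offset of 16 and an intensity trend each called 2 NuRD probes against mock, GATAD2A AHsV10003152 being added. Leaving out 1 array gave 2 to 4 called NuRD probes against the negative control, 1 to 2 against mock and 0 to 1 between negative control and mock. With 1 mock array left, it was assumed to vary like the other groups.

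For probe pairs, an offset of 16 called 2 for mimic with negative control and 2 for mimic with mock, while the authors' log2 values called 3 and 2. Between negative control and mock, the blank mean subtracted and median centring called 0 pairs and the absence of a filter called 2. Leaving out 1 array gave 0 to 1 pairs in each comparison. Over all results, 1507 of 1656 values kept their side of the threshold. Of these, 85 that were called in neither setting changed direction.

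The replicate block left the counts of called NuRD probes at 3, 1 and 1 and called 0 probe pairs against mock and 0 between negative control and mock. Over all probes it called 1848, 223 and 141 in the 3 comparisons, in place of 2017, 488 and 465. Median centring changed the split of all calls against the negative control from 1009 lower and 1008 higher to 319 and 628, against mock from 330 and 158 to 79 and 23, and between negative control and mock from 288 and 177 to 88 and 9. With the authors' log2 values the latter 2 splits were 127 and 20, and 79 and 10, and the median log2 change over all probes between negative control and mock was -0.115. Dim probes limit the precision: MTA1 AHsV10003269 and GATAD2A H300009165 were above background on 5 and 2 arrays, and GATAD2A AHsV10003152 was near background on the negative control arrays.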
